A study of Mus musculus with 8 samples.

Results

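The cytosolic ribosomal protein genes are the protein-coding part of the translation machinery, and 85 of them were measured here, 52 named for the large subunit and 33 for the small subunit. They were found by symbol alone: Rpl or Rps followed by a number, with the usual suffixes for copies and paralogs, plus Rplp0, Rplp1, Rplp2 and Rpsa. The 85 symbols are among 34976 with usable values and rest on 390 transcript rows, whose FPKM values (fragments per unit of transcript length and of library size) were summed per symbol. All 85 had a mean of at least 1 FPKM and so were among the 11755 genes tested. Of the 85, Rps12l1 lies wholly within another annotated gene and its row is annotated as a processed pseudogene. The most abundant row of Rps4l is a noncoding transcript. These symbols match the naming rule without being clear protein-coding members. The most abundant row is a retained-intron transcript for Rpl35a, Rpl5 and Rps20 and a nonsense-mediated decay transcript for Rpl12 and Rpl22l1, so their sums include such rows.

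Each ribosome carries 1 copy of most of these proteins, and their mRNAs are kept at similar levels by a shared promoter type and a shared translational switch. In mammals these mRNAs begin with a C and a run of pyrimidines, the 5′ terminal oligopyrimidine or TOP motif, through which Larp1 and the kinase complex mTORC1 hold them back or release them. In the mouse embryo, ribosomal protein mRNA is inherited from the oocyte, and new transcription begins with activation of the embryonic genome at the 2-cell stage. Some members have a paralog used in particular tissues, such as Rpl39l and Rpl10l, which are known from the testis.

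The embryos came from CF-1 mice, were injected at the early 1-cell stage and were collected late in the 2-cell stage. The control group received a scrambled morpholino, and the other group received a morpholino directed at the start of the transcript of Med13, a subunit of the Mediator kinase module. Each group had 4 libraries, each from a separate collection of 40 pooled embryos, so every value is an average over embryos. No uninjected embryos were analysed here, and all 8 libraries share the injection, the amplification of total RNA and the stage. Library totals, recovered from the smallest steps between FPKM values, ran from 31378007 to 48050551 fragments. Med13 mRNA stood at 41.3 ± 4.31 FPKM (SD, n = 4) in scrambled and 42.2 ± 2.14 FPKM (SD, n = 4) in Med13 morpholino embryos. A morpholino can act without lowering RNA, so this level does not check the knockdown. The embryo identity of the libraries was plain from the markers: all 12 oocyte and early embryo markers and all 12 markers of the 2-cell stage averaged above 1 FPKM, and all 12 cumulus and granulosa markers averaged below 1.

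Most ribosomal protein genes did not pass the test between the groups. With limma on log2(FPKM + 1) and an adjusted p below 0.05 over all genes tested, 2 of the 85 were called (2.35%), against 17.1% of all genes tested. Rpl39l rose in Med13 morpholino embryos, where 9.29% of all genes tested were called higher. Rps29 fell, where 7.81% of all genes were called lower. The same 2 were the only members at an unadjusted p below 0.05, and the only members whose groups did not overlap (2.35%, against 21.6% of all genes tested). The median SE was 0.23 for members and 0.18 over all genes tested. Members also moved together over the 8 libraries (median pairwise Pearson r 0.86). The 85 are thus not separate observations, and why the shares differ was not tested. Embryos were measured in bulk, so a change in some cells and a change in every cell cannot be told apart. FPKM is relative to each library's total, so the amount of RNA per embryo is not shown.

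Among the 83 members that were not called, log2 fold changes lay between −0.61 and 0.30. The 95% interval of a member reached 0.50 on either side of its estimate at the median, a 1.42-fold change. For 80 of the 85 members the whole interval lay within a 2-fold change in either direction, so smaller differences were not resolved. Negative values were found for 61 members and positive values for 24, and the median over all 85 was −0.11, beside −0.06 over all genes tested. Without Med13 morpholino replicate 1 the median was 0.10, so its sign rests on that library. The large subunit had a median of −0.11 with 37 of 52 values below 0, and the small subunit −0.13 with 24 of 33.

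**Figure D1:**
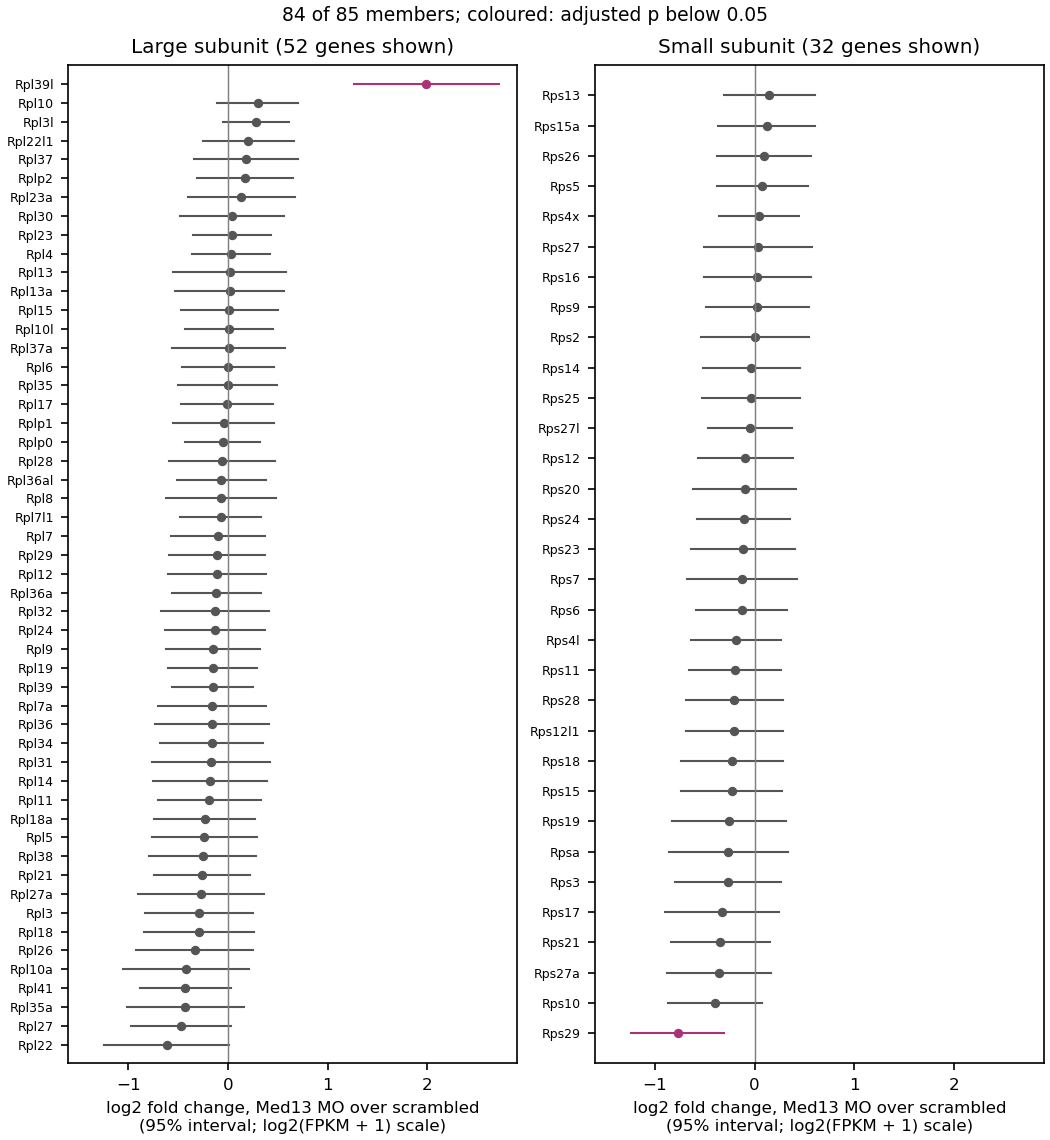
Log2 fold change of 84 of the 85 genes (Med13 morpholino over scrambled, log2(FPKM + 1) scale, 4 libraries per group) with its 95% interval, large subunit left and small subunit right. Rpl39l at 1.99 and Rps29 at −0.77 are the 2 coloured genes, and every other interval shown crosses 0.

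Rpl39l is the paralog of Rpl39, a small basic protein that lines the exit tunnel through which the growing peptide leaves the large subunit. Their coding sequences are printed because short, similar genes can trade reads. Both hold 153 bases without the stop codon in GENCODE M21 (GRCm38, the mm10 assembly). Rpl39 is read from the minus strand of chrX:37082704-37085127 (introns left out) and Rpl39l from the plus strand of chr16:10174310-10174462. Capitals mark the bases at which the 2 differ.
Rpl39: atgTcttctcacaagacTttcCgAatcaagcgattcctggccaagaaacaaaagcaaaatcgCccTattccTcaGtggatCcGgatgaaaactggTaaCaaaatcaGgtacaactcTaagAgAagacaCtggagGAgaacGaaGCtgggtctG
Rpl39l: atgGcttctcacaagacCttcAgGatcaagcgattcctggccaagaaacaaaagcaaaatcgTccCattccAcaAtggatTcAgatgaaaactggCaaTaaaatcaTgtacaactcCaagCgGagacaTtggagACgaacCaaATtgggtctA
They differ at 23 bases, 16 of them at the third position of a codon, and are 85.0% identical. The longest run without a difference is 38 bases, so a read crossing most of the coding sequence meets at least 1 difference, and the untranslated parts of the 2 mRNAs lie outside this comparison.

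In scrambled embryos, Rpl39l was read at 8.01, 4.74, 11.9 and 10.1 FPKM in replicates 1 to 4. In Med13 morpholino embryos it was read at 16.5, 40.9, 45.3 and 53.1 FPKM. Every Med13 morpholino library was above every scrambled library, and replicate 1 was the lowest of its group. The group means were 8.68 ± 3.07 and 39.0 ± 15.8 FPKM (SD, n = 4 each). The log2 fold change was 1.99 ± 0.34 (SE; adjusted p = 0.0027 by limma), with a 95% interval of 2.40- to 6.57-fold. Rpl39l stayed called under all 19 alternative settings, with log2 fold changes between 1.76 and 2.35 when any 1 library was left out. The summed rows of Rpl39l correspond to 136 fragments in the lowest scrambled library and 436 in the lowest Med13 morpholino library, so counting error is small beside the spread. The gene spans chr16:10170226-10174911 and shares no exonic base with another annotated gene.

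Rpl39 itself was measured at 224, 204, 256 and 256 FPKM in scrambled and at 158, 214, 208 and 279.8 FPKM in Med13 morpholino libraries. The groups overlapped, and the log2 fold change was −0.15 ± 0.19 (SE; adjusted p = 0.61 by limma). Rpl39l therefore made up 3.48 ± 0.91% (SD, n = 4) of the pair's summed FPKM in scrambled and 14.8 ± 3.71% (SD, n = 4) in Med13 morpholino embryos. Rpl39 remained the more abundant member of the pair per length in all 8 libraries.

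Most markers of the oocyte and of the 2-cell stage moved in the same direction as Rpl39l. The 12 oocyte and early embryo markers summed to 583 to 716 FPKM in scrambled and 856 to 1073 FPKM in Med13 morpholino libraries. Of these, 7 were called higher, against 9.29% of all genes tested, and 2 had negative log2 fold changes. Dppa3, the most abundant of the 12, was among those 2, at 557 and 536 FPKM in the mean. The 12 markers of the 2-cell stage summed to 242 to 328 and 369.7 to 508 FPKM. Of these, 7 were called higher and 2 lower, where 7.81% of all genes tested were called lower, and 3 had negative log2 fold changes. Whether stage has a part in the Rpl39l result was not tested. Sperm markers, included because Rpl39l is known from male germ cells, summed to 5.57 to 12.4 FPKM in scrambled and 12.4 to 18.5 FPKM in Med13 morpholino libraries, with 1 of the 6 in the table above a mean of 1 FPKM, Odf2, a gene that is also expressed outside sperm. None of those 6 was at 0 in all libraries, and their part in the result was not tested.

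Rps29 is a small zinc-binding protein of the small subunit, placed near the decoding side of the head, where mRNA enters. It was the member called lower. Scrambled libraries gave 354, 362, 375 and 290.2 FPKM, and Med13 morpholino libraries gave 126, 229.9, 230.1 and 246 FPKM. All 4 Med13 morpholino values were below the lowest scrambled value. The log2 fold change was −0.77 ± 0.22 (SE; adjusted p = 0.030 by limma), with a 95% interval of 0.42- to 0.81-fold. Med13 morpholino replicate 1 held the lowest value of 82 of the 85 members, Rps29 included. Without it, the log2 fold change of Rps29 was −0.55 (adjusted p = 0.038 by limma).

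The Rps29 call held in 13 of 19 alternative settings. The adjusted p of Rps29 by limma rose to 0.063 without scrambled replicate 1, 0.079 without scrambled replicate 3, 0.058 without Med13 morpholino replicate 2 and 0.051 without Med13 morpholino replicate 3. It was 0.11 when no genes were filtered out and 0.099 when each library was centred on the ribosomal protein median.

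**Figure D2:**
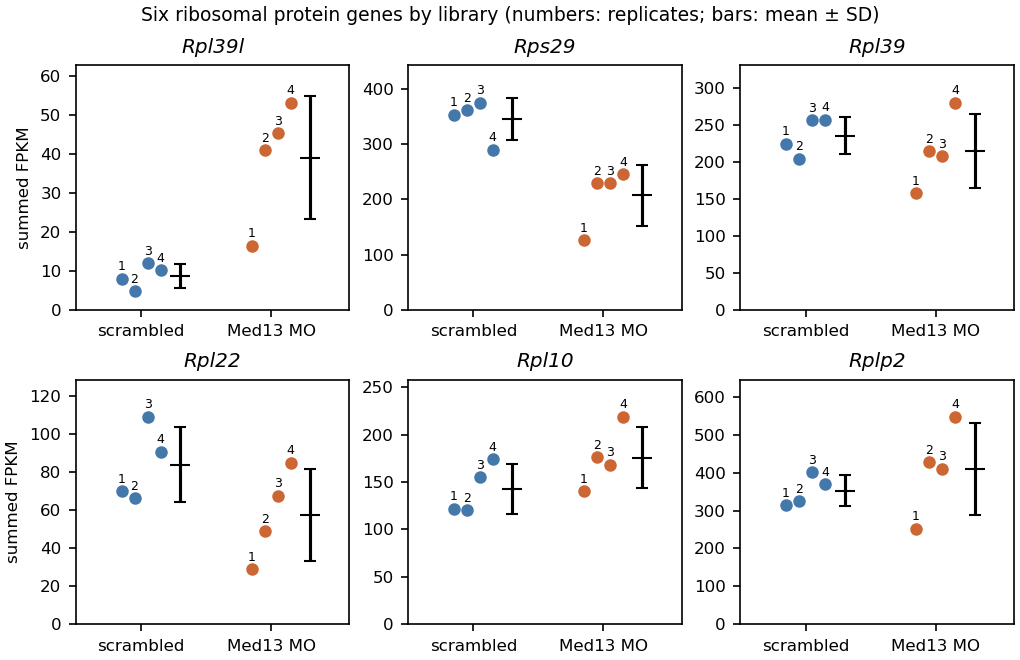
Summed FPKM of 6 ribosomal protein genes in each library (points, numbered by replicate) with the group mean and SD (bars). The groups are separate for Rpl39l and Rps29 and overlap for Rpl39, Rpl22, Rpl10 and Rplp2, and Med13 morpholino replicate 1 is the lowest of its group in all 6 panels.

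The members next in order of adjusted p were mostly lower in mean level, and none passed. Rpl22, an RNA-binding protein at the rim of the exit tunnel, was measured at 69.8, 66.1, 108.9 and 90.5 FPKM in scrambled and at 28.9, 48.8, 67.4 and 84.9 FPKM in Med13 morpholino libraries. The groups overlapped through scrambled replicates 1 and 2, and the log2 fold change was −0.61 ± 0.29 (SE; adjusted p = 0.16 by limma). Rpl27, of the large subunit, averaged 113 ± 14.7 and 84.2 ± 26.6 FPKM (SD, n = 4 each; adjusted p = 0.18 by limma). Rpl41, the shortest of the ribosomal proteins, averaged 256 ± 46.1 and 193 ± 50.8 FPKM (SD, n = 4 each; adjusted p = 0.18 by limma). Rpl22, Rpl41 and Rpl35a became called lower under 1 alternative, limma with a weight per library. That setting called 36.9% of all genes tested, against 5 of 85 members.

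Rps10, of the small subunit, had a log2 fold change of −0.40, and Rpl35a, of the large subunit, −0.43. Rps10 shares 28.7% of its exonic bases with other annotated genes, RPS10-NUDT3 foremost, and its values may include reads of them. For 12 other members, over 20% of exonic bases are shared with other annotated genes. Rpl10, which joins the large subunit in its last maturation step, had the largest positive log2 fold change after Rpl39l, 0.30 ± 0.19 (SE; adjusted p = 0.29 by limma). Its values were 122, 120.0, 155 and 174 FPKM in scrambled and 140.5, 176, 168 and 219 FPKM in Med13 morpholino libraries. For Rpl10, Med13 morpholino replicate 1 was above scrambled replicates 1 and 2, which sets it apart from Rpl22 and Rps29. Rpl3l, the muscle-type paralog of Rpl3, was the least abundant member, at 1.66 ± 0.38 and 2.22 ± 0.34 FPKM (SD, n = 4 each; adjusted p = 0.23 by limma).

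The most abundant members per length were Rplp2, Rplp1, Rps24, Rpl32 and Rps29, and only the last passed. Across members, mean levels over the 8 libraries ran from 1.94 FPKM for Rpl3l to 381 FPKM for Rplp2 with a median of 96.5 FPKM, and 77 members were above 30 FPKM. Rplp0, Rplp1, Rplp2 and Rpl12 form the stalk and its base, where elongation factors bind. Rplp2 was measured at 315, 324, 403 and 369 FPKM in scrambled and at 253, 428, 411 and 548 FPKM in Med13 morpholino libraries, a wider span in the second group. The 4 stalk genes had log2 fold changes from −0.11 to 0.17, and 0 of 4 passed, where 17.1% of all genes tested were called.

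Rpl5 and Rpl11 travel with 5S rRNA and, when free, bind the p53 regulator Mdm2. Their means were 42.7 ± 8.19 and 37.3 ± 12.8 FPKM for Rpl5 and 155 ± 13.2 and 143 ± 53.7 FPKM for Rpl11 (SD, n = 4 each), and neither passed. Rps27a is made as a fusion with ubiquitin and averaged 97.0 ± 10.6 and 79.2 ± 27.3 FPKM (SD, n = 4 each; adjusted p = 0.33 by limma). By position on the ribosome, 0 of 10 genes of the exit tunnel and its rim passed, with a median log2 fold change of −0.15. This list holds Rpl39 but not its paralog Rpl39l, which was called higher. On the small subunit, 1 of 9 genes of the mRNA entry and decoding side passed, which was Rps29, and 0 of 5 genes of the mRNA exit side. With 17.1% of all genes tested called, these counts are too small to set 1 position apart.

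A paralog could be set beside the gene it resembles in 8 pairs, which cancels what a library does to both alike. The ratio of paralog to partner in FPKM was tested by a two-sided exact permutation test over the 70 ways to assign 4 of 8 libraries, whose smallest possible p is 0.0286. With 8 pairs tested, no ratio passed after Benjamini-Hochberg adjustment. When 2 of 8 pairs reach the smallest possible p, the adjustment gives 0.114, so these 2 could not have passed. For Rpl39l over Rpl39 the mean log2 ratio was −4.83 ± 0.43 in scrambled and −2.56 ± 0.48 in Med13 morpholino libraries (SD, n = 4 each; exact permutation p = 0.0286, adjusted 0.114). For Rpl22l1 over Rpl22 it was −1.97 ± 0.14 and −1.14 ± 0.36 (SD, n = 4 each; exact permutation p = 0.0286, adjusted 0.114). In these 2 pairs every Med13 morpholino library was above every scrambled library, and both p-values are the smallest the design allows.

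Rpl22l1 encodes the paralog of Rpl22, and its most abundant row is annotated as a nonsense-mediated decay transcript. Rpl22l1 was measured at 17.8, 17.4, 24.2 and 25.5 FPKM in scrambled and at 16.9, 26.5, 23.6 and 32.5 FPKM in Med13 morpholino libraries, with overlap between the groups (log2 fold change 0.20, adjusted p = 0.54 by limma). Its share of the pair was 20.3 ± 1.59% in scrambled and 31.4 ± 5.39% in Med13 morpholino libraries (SD, n = 4 each). The separation of the ratio thus combines a lower mean of Rpl22 and a higher mean of Rpl22l1, neither of which passed alone. The coding sequences of that pair are 65.9% identical.

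The other 6 ratios overlapped between the groups. Rpl3l over Rpl3 had a mean log2 ratio of −4.37 ± 0.59 and −3.64 ± 0.24 (SD, n = 4 each; exact permutation p = 0.086, adjusted 0.23). Rpl10l, an autosomal copy of the X-linked Rpl10 known from male germ cells, held 19.3 ± 3.13% and 16.4 ± 1.90% of its pair (SD, n = 4 each). It was measured at 33.8 and 34.8 FPKM in the mean, so this second testis paralog had a log2 fold change of 0.01 with a 95% interval of −0.43 to 0.46. Rpl36al was the only paralog above its partner, at 57.5 ± 1.10% and 58.4 ± 1.52% of the pair (SD, n = 4 each). The ratios of Rpl7l1 to Rpl7, Rps27l to Rps27 and Rps4l to Rps4x differed between the group means by 0.02, −0.09 and −0.25 on the log2 scale.

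**Figure D3:**
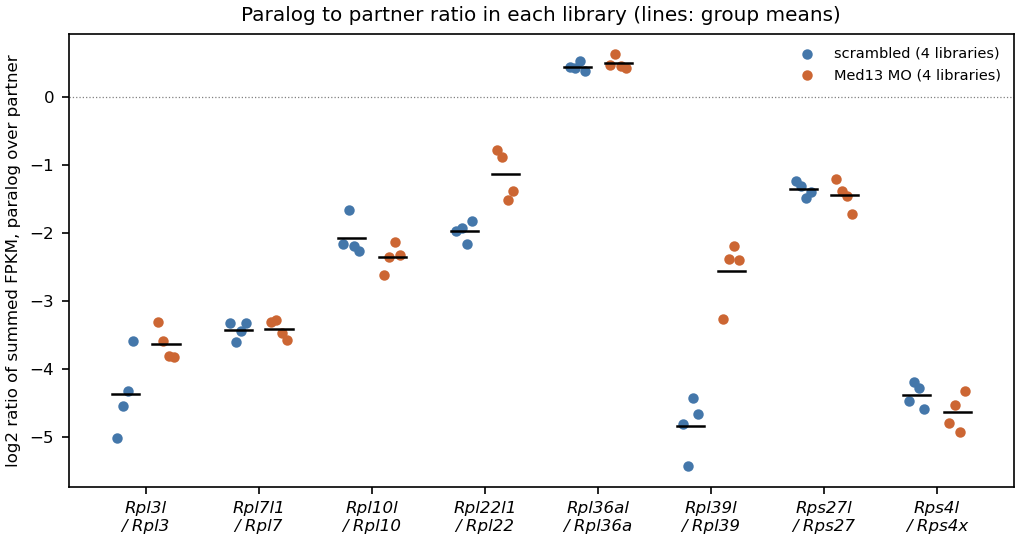
Log2 ratio of the summed FPKM of each paralog to that of its partner in every library (points) with group means (lines). Scrambled and Med13 morpholino libraries separate for Rpl39l over Rpl39 and for Rpl22l1 over Rpl22, and overlap for the other 6 pairs.

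The members moved together from library to library, and both extremes were Med13 morpholino libraries. The median member deviated from its own mean over the 8 libraries by −0.07, −0.12, 0.24 and 0.14 on the log2 scale in scrambled replicates 1 to 4. In Med13 morpholino replicates 1 to 4 it deviated by −0.72, −0.03, 0.08 and 0.46. The SD of these medians was 0.17 in scrambled and 0.49 in Med13 morpholino libraries, while the same SD for the median of all genes tested was 0.12 and 0.08. The equality of these spreads was not tested.

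From Med13 morpholino replicate 1 to replicate 4, all 85 members were higher, by 1.19 on the log2 scale at the median (2.29-fold), while all genes tested differed by 0.15. The member differences ran from 0.28 for Rpl3l to 1.63 for Rpl39l. Replicate 1 held the lowest value for 82 members and replicate 4 the highest for 69. As a share of all summed FPKM, the members made up 4.61, 4.30, 5.66 and 5.21% in scrambled libraries and 3.11, 4.53, 4.68 and 5.96% in Med13 morpholino libraries. The means were 4.95 ± 0.61% and 4.57 ± 1.17% (SD, n = 4 each), a difference smaller than either spread. Library totals did not follow this order throughout: Med13 morpholino replicate 1 and scrambled replicate 1 had 37774034 and 37679962 fragments. The library with the largest total in each group also had the largest share. These were scrambled replicate 3 (48050551 fragments) and Med13 morpholino replicate 4 (45747422 fragments). Whether library totals have a part was not tested.

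**Figure D4:**
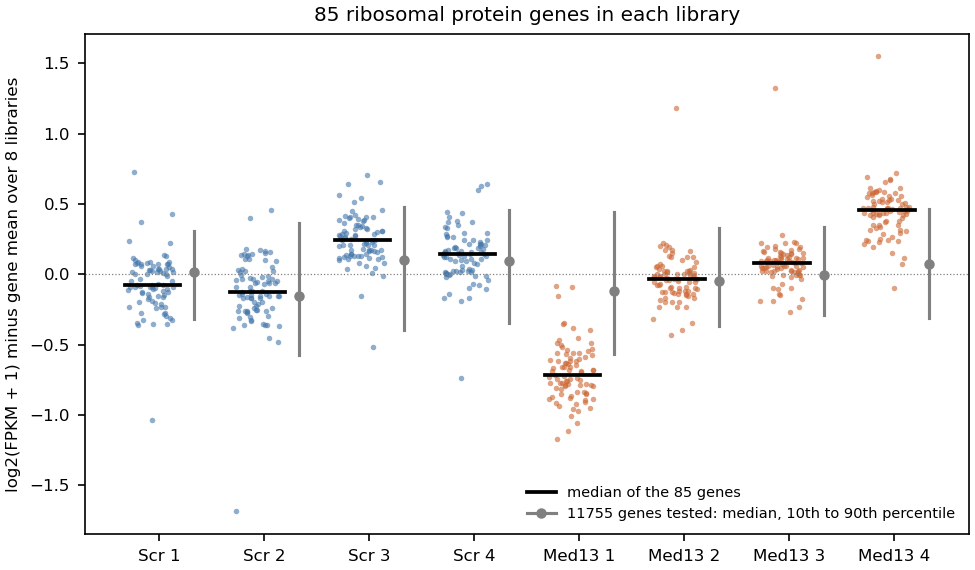
Deviation of each of the 85 genes from its mean over the 8 libraries on the log2(FPKM + 1) scale (points, with the median as a black line) beside the median and the 10th to 90th percentile of the 11755 genes tested (grey). The ribosomal protein median lies at −0.72 in Med13 morpholino replicate 1 and at 0.46 in replicate 4, while the median of all genes stays between −0.16 and 0.10.

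Centring each library on the ribosomal protein median showed how alike the members were. A member's SD over the 8 libraries was 0.38 at the median before centring and 0.15 after it. Relative to the list median, 70 of the 85 members had a group difference within 0.25 on the log2 scale in either direction. The relative differences ran from −0.67 for Rps29 to 2.09 for Rpl39l. Next to these stood Rpl22 at −0.51, Rpl27 at −0.38, Rpl10 at 0.40 and Rpl3l at 0.38. In a fit on centred values, which makes every gene relative to the ribosomal proteins and was added after the data were seen, Rpl39l stayed called, 1 of 85 members against 2.14% of all genes tested.

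What the members share in sequence was looked at in their promoters. The RefSeq promoter table (GRCm38.p6) held 63 of the 85 members. The tract searched was a C followed by at least 7 further C or T bases on the sense strand within 50 bases of the RefSeq start, a pattern meant to catch the TOP motif and tracts like it. It was found in 53 of 63 members (84.1%), against 32.0% of all 27025 symbols with a promoter and 31.2% of the 7579 that were tested. In the examples below, which run from 45 bases before the RefSeq start through the first 15 bases of the transcript, capitals mark such tracts. Rps6, the target of S6 kinase, and Rpl35 are shown as members whose tract crosses the start, and Rpl39 and Rpl39l for their different levels.
Rps6: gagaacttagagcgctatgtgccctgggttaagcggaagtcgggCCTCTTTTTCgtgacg
Rpl35: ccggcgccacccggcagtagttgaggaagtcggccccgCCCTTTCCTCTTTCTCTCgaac
Rpl39: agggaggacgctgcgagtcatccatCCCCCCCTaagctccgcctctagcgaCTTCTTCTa
Rpl39l: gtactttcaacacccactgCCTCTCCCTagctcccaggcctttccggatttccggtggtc
In order, these windows lie at chr4:86857353-86857412 on the minus strand, chr2:39005117-39005176 on the minus strand, chrX:37085208-37085267 on the minus strand and chr16:10170183-10170242 on the plus strand. The tracts shown for Rpl39 lie on either side of the RefSeq start without crossing it, and the tract of Rpl39l ends before its start. GENCODE gives other starts for some transcripts of these genes, so the place of a tract relative to the start depends on the annotation.

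A pair of further motifs was searched on both strands of the 300-base window, from 250 bases before to 50 after the start. CCGGAAGT, a site type bound by ETS factors such as Gabpa, was found in 12 of 63 members (19.0%), against 4.31% of all symbols and 10% of those tested. AAGATGGC, the core bound by Yy1, was found in 6 of 63 members (9.52%), against 3.19% and 5.62%. In 1 member promoter the tract overlapped one of these motifs. Members with and without the tract had median log2 fold changes of −0.11 and −0.06.

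Ribosomal protein genes that the naming rule missed were measured too. The 5 in the table, with Fau, Gnb2l1, Rps3a1 and Rps27rt among them, had a median log2 fold change of −0.20, and 0 of 5 passed. Other TOP mRNAs, which encode elongation factors, initiation factors and proteins such as Pabpc1 and Tpt1, had a median of −0.10 and 0 of 17 passed. Beside these counts, 17.1% of all genes tested were called, and a difference from other genes was not tested. The most abundant was Npm1, a nucleolar chaperone, at 916 ± 161 and 995 ± 83.1 FPKM (SD, n = 4 each). In Med13 morpholino replicate 1 the median deviation was −0.73 for the missed ribosomal proteins and −0.41 for the other TOP mRNAs. It was −0.43 there for the chaperones and importins described below, so a low median was not confined to TOP mRNAs.

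Among genes that regulate TOP mRNAs or belong to the mTORC1 pathway, 4 of 21 were called and all 4 fell. Beside this, 17.1% of all genes tested were called and 7.81% called lower. A difference between this list and other genes was not tested. Larp1, which binds the TOP motif and the cap, averaged 32.0 ± 5.79 and 18.9 ± 3.03 FPKM (SD, n = 4 each), a log2 fold change of −0.73 ± 0.18 (SE; adjusted p = 0.018 by limma). Its groups did not overlap, and it was called in 15 of 19 alternative settings. Larp4, which binds poly(A) and stabilises mRNA, averaged 178 ± 44.0 FPKM in scrambled and 111 ± 9.71 FPKM in Med13 morpholino embryos (SD, n = 4 each; adjusted p = 0.031 by limma), a log2 fold change of −0.65. Tsc1, an inhibitor of mTORC1, had a log2 fold change of −0.62 (adjusted p = 0.018 by limma). Akt1s1, which encodes the mTORC1 component PRAS40, had −0.91 (adjusted p = 0.044 by limma), with overlapping groups. Mtor, the kinase itself, was measured at 4.20 and 5.45 FPKM in the mean and was not called. The most abundant gene of the list, Cnbp, was at 173 ± 19.7 and 150.4 ± 29.3 FPKM (SD, n = 4 each).

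Of the transcription factors known at ribosomal protein promoters, 5 of 13 were called, with 4 lower and 1 higher, beside 17.1% of all genes tested called, 7.81% lower and 9.29% higher. Whether the list differs from other genes was not tested. Yy1 was measured at 65.8, 110.6, 45.6 and 32.3 FPKM in scrambled and at 28.5, 23.2, 23.1 and 21.6 FPKM in Med13 morpholino libraries, without overlap. Its means were 63.6 ± 34.2 and 24.1 ± 3.02 FPKM (SD, n = 4 each), with a log2 fold change of −1.22 ± 0.30 (SE; adjusted p = 0.016 by limma). Sp3, a factor of GC boxes, had −0.46 (adjusted p = 0.042 by limma). Zbtb7a, a zinc finger repressor, fell by 0.77 on the log2 scale (adjusted p = 0.0060 by limma), with means of 3.34 ± 0.55 and 1.54 ± 0.27 FPKM (SD, n = 4 each). Of the Max partners that oppose Myc, Mnt had −0.63 (adjusted p = 0.046 by limma) and Mxd1 had 0.63 (adjusted p = 0.016 by limma). Gabpa, the DNA-binding part of GABP and the most abundant of the list, averaged 93.6 ± 10.4 and 71.9 ± 7.09 FPKM (SD, n = 4 each). Its groups did not overlap but it was not called (adjusted p = 0.11 by limma), and Myc was at 7.53 and 7.50 FPKM in the mean. None of the 13 factors was measured as protein or as binding here.

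Of 13 chaperones and importins that accompany new ribosomal proteins, 2 were called and both fell, beside 17.1% of all genes tested called and 7.81% called lower. A difference from other genes was not tested here either. Heatr3, which escorts Rpl5, had a log2 fold change of −0.56 (adjusted p = 0.042 by limma), and Tnpo1, an importin, −0.64 (adjusted p = 0.013 by limma). Nap1l1, a histone chaperone of the same list, was the most abundant at 95.4 ± 11.8 and 108 ± 6.87 FPKM (SD, n = 4 each). Among 12 genes of ribosomal protein surveillance and the p53 link, Usp10, which removes ubiquitin from stalled small subunits, fell (log2 fold change −0.70, adjusted p = 0.049 by limma). Mdm4, the most abundant of these, was at 314 ± 61.7 and 379 ± 67.4 FPKM (SD, n = 4 each).

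Most of these calls lay near the threshold and were lost when 1 library was left out, while their sizes changed less: Sp3 stayed between −0.51 and −0.41 on the log2 scale, Heatr3 between −0.66 and −0.49, Larp1 between −0.86 and −0.63, Tsc1 between −0.69 and −0.54 and Tnpo1 between −0.73 and −0.60. The calls of Sp3, Heatr3 and Usp10 were lost without any 1 of Med13 morpholino replicates 1 to 3 or scrambled replicates 1, 3 and 4, with adjusted p by limma up to 0.114 for Sp3, 0.128 for Heatr3 and 0.137 for Usp10. Mnt was lost without any 1 of Med13 morpholino replicates 1 to 3 or scrambled replicates 2 to 4 (up to 0.134), Akt1s1 without any 1 of Med13 morpholino replicates 1 to 3 or scrambled replicates 3 and 4 (up to 0.124), and Larp4 without any 1 of Med13 morpholino replicates 2 to 4 or scrambled replicates 1 to 3 (up to 0.097). Without Med13 morpholino replicate 2, adjusted p was 0.058 for Larp1, 0.051 for Tsc1, 0.054 for Tnpo1 and 0.051 for Mxd1, and Larp1 was also lost without scrambled replicate 3 (0.060). Yy1 and Zbtb7a kept their calls with any 1 library left out. The log2 fold change of Yy1 then ran from −1.49 to −0.91, a wider range than those above, and that of Zbtb7a from −0.86 to −0.71. With libraries centred on the ribosomal protein median, 0 of these 12 calls held, with adjusted p between 0.10 for Akt1s1 and 0.50 for Sp3. That setting called 2.14% of all genes tested, against 17.1% in the main fit, so lost calls were common there.

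**Figure D5:**
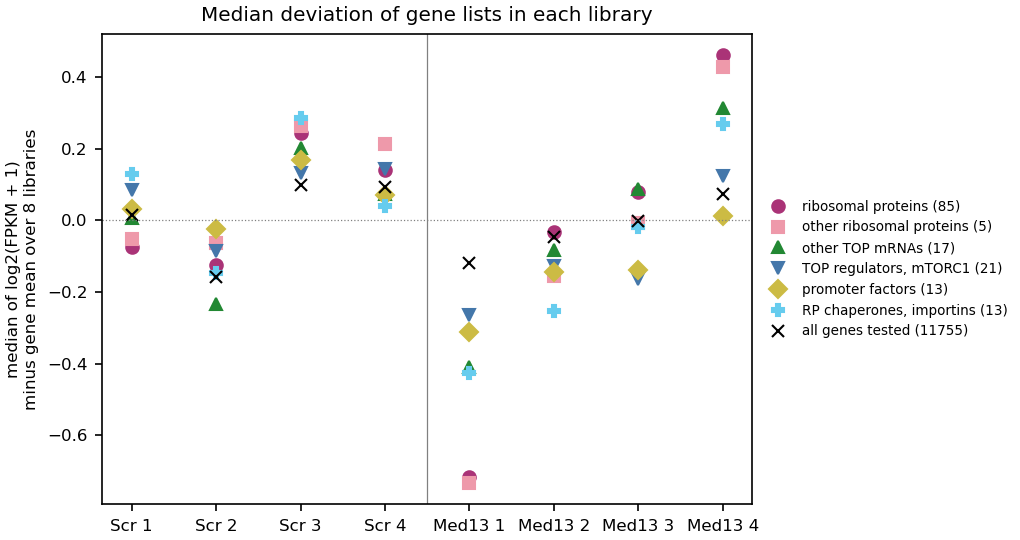
Median deviation of each gene list from the gene means over the 8 libraries on the log2(FPKM + 1) scale, by library, with list sizes in the legend. Members, other ribosomal proteins and other TOP mRNAs are lowest in Med13 morpholino replicate 1, at −0.72, −0.73 and −0.41, and highest in replicate 4. The chaperones and importins, promoter factors and TOP regulators are also lowest in replicate 1, at −0.43, −0.31 and −0.26. All genes tested (crosses) are at −0.12 and 0.07 in Med13 morpholino replicates 1 and 4.

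Other cell types left little signal. Cumulus and granulosa markers summed to at most 1.94 FPKM in any library, with 0 of 12 tested. Of 6 oviduct markers, 2 were tested and 1 fell, the oviduct glycoprotein gene Ovgp1 (adjusted p = 0.044 by limma, called in 5 of 17 alternative settings, adjusted p up to 0.58), with list sums of 11.8 to 14.0 FPKM in scrambled and 9.47 to 11.3 FPKM in Med13 morpholino libraries. Of 8 blood and immune markers 2 were tested and 0 passed, and the sums of 46.6 to 132 and 40.3 to 61.5 FPKM came mostly from Pecam1, an adhesion gene. No marker of these lists was at 0 in all 8 libraries. Over all genes tested, 17.1% were called and 7.81% called lower.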

How the data were processed

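Each group had 4 pools of 40 embryos, whose RNA was amplified (Ovation V2) and made into TruSeq libraries, per the labels' protocols. The authors deposited FPKM per Ensembl transcript, with BWA and mm10 named in the submitters' processing notes, while versions, the counting tool and strandedness were not given in the sources used here. In 3758 rows, all with a hyphen in the symbol, values stand 1 column off, so the deposited column of scrambled replicate 1 holds other content (text). These rows were left out. Low values lay on steps of 0.5 fragments (94.3 to 94.5% within 0.01 steps), which gave the library totals. How fragments shared by isoforms or near-identical copies were assigned is unknown, so a sum over rows can hold the same fragment repeatedly.

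Rows were summed per symbol, genes averaging 1 FPKM or more were kept, and log2(FPKM + 1) was tested with limma 3.58.1 in R 4.3.3 (mean-variance trend, two-sided, Benjamini-Hochberg, adjusted p below 0.05), a script tested on simulated data. Fold changes on this scale understate those of low genes. Paralog ratios used exact permutation (SciPy 1.17.1). Alternatives were the pseudocount, filter, scaling, transcript choice, sample weights, trend and each library left out, with centring on the ribosomal protein median added after seeing the data. Members and lists were chosen with earlier results of these data known. Named genes were called members, the 10 with the smallest adjusted p, the 5 most and 3 least abundant, the stalk, 5S, ubiquitin fusion and paralog members with partners, and, of other lists, called genes and the most abundant. Others were named after their values were seen. A few items under this rule are not reported here.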

Additional observations from a re-analysis of the deposited data

Results flagged for a closer look

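In 4 of 104 groups of 4 libraries examined, 1 library stood apart from the other 3 by Dixon's criterion, where chance gives about 1 in 20, or 5.2 groups. Rps10 was at 246.4 FPKM in scrambled replicate 3, with the other scrambled libraries between 206.9 and 208.3 FPKM. Rps29 was at 125.9 FPKM in Med13 morpholino replicate 1, with the others of that group between 229.9 and 246 FPKM. Sp3 was at 17.0 FPKM in scrambled replicate 4, with the others between 14.2 and 14.4 FPKM. Tnpo1 was at 21.5 FPKM in scrambled replicate 2, with the others between 27.1 and 27.9 FPKM.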

How the results depend on the processing

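The 2 calls among members became 1 without the filter on low values, 1 with libraries centred on the ribosomal protein median and 5 with sample weights, and ranged from 1 to 2 with single libraries left out. Over all genes, 2010 calls (1092 higher, 918 lower) became 1012 without the filter, 1137 at a mean FPKM of at least 5, 4336 with sample weights (1712 higher, 2624 lower) and 252 with centred libraries (194 higher, 58 lower), and ranged from 956 (without Med13 morpholino replicate 2) to 2404 (without scrambled replicate 2). The counts were 1291 and 1245 without Med13 morpholino replicates 1 and 3 and 1113 without scrambled replicate 3. The causes were not tested. The members' median log2 fold change ranged from −0.27 to 0.10 and turned positive only without Med13 morpholino replicate 1. For 51 named genes under 19 settings, 849 of 961 values kept direction and side of the threshold, 36 values (18 genes, not called in either fit) changed sign, 72 lost the call, 4 gained it and 0 called values reversed. No paired analysis was run because the labels give no replicate numbers shared between the groups. The library titles carry alternating numbers, even for scrambled and odd for Med13 morpholino libraries, but no label ties libraries into pairs. If the groups were collected in pairs, the fits ignore it. Differences smaller than the 95% intervals of single members were not resolved.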

Other observations

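Ribosomal protein pseudogenes have symbols with a hyphen and stand in the rows whose values are 1 column off. Moved back by 1 column, these rows give 7 libraries and no value for Med13 morpholino replicate 4. The 251 pseudogene symbols summed to between 16.2% and 17.6% of the summed FPKM of the 85 members in each of the 7 libraries, with the highest share in Med13 morpholino replicate 1. The most abundant, Rps13-ps2, was at 64.7, 62.4, 91.1 and 80.6 FPKM in scrambled replicates 1 to 4 and at 57.0, 92.8 and 87.9 FPKM in Med13 morpholino replicates 1 to 3. How much of this is transcription of the copies and how much is reads of the parent genes was not tested.

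By annotated transcript kind, protein-coding rows held 78.9 ± 0.34% of the members' summed FPKM in scrambled and 79.7 ± 0.26% in Med13 morpholino libraries (SD, n = 4 each). Retained-intron rows held 11.7 ± 0.26% and 11.4 ± 0.19%. Across the 85 members, Spearman's rho of the log2 fold change with the length of the main transcript was 0.11, with its GC content −0.14 and with mean FPKM 0.13, given as a description since members are not independent replicates.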
